A study of Mus musculus with 4 samples.

Results

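The genes described are 10 antioxidant enzymes and their reductants, out of the 15746 genes with values. They were chosen by name, for the compartment in which their proteins work, and not by a measured value. Earlier results of these data were known when they were chosen. Sod2, Prdx3, Prdx5, Txn2, Txnrd2 and Gpx4 make up the 6 mitochondrial members, and Sod1, Prdx2, Gpx1 and Cat the 4 members that work mainly in the cytosol or in peroxisomes. All 10 were listed in every library and passed the filter on low values (10 or more normalized counts in 2 or more of the libraries), as did 12150 genes in all. The members are nuclear genes, so that the question was how their mRNAs were spread between the fractions.

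RNA of hearts from mice of genotype WT was sequenced from the mitochondrial fraction (labelled isolated mitochondria) and from the rest fraction, with 2 libraries for each. The rest fraction was the low-speed pellet of cell debris, and the mitochondria were pelleted at higher speed from the supernatant. The methods describe a treatment of the mitochondria, and not of the rest fraction, with RNase A and with digitonin, which permeabilizes cholesterol-rich membranes, and an adjusted fragmentation time for their RNA, so that fraction, treatment and fragmentation cannot be told apart. The labels give neither age, sex nor strain of the mice, and nothing says that the 2 libraries of a fraction came from separate animals, so that p-values measure the spread between these libraries, which may be technical.

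Oxidative phosphorylation in heart mitochondria releases superoxide. Superoxide dismutases convert superoxide to hydrogen peroxide. Peroxiredoxins, glutathione peroxidases and catalase then break the peroxide down. Peroxiredoxins are reduced again by thioredoxin and thioredoxin reductase, glutathione peroxidases by glutathione, and the electrons for both come from NADPH. Each compartment has its own set, and most mitochondrial enzymes carry an import signal at the start of the protein.

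Among the members, Gpx4, Gpx1 and Txnrd2 are selenoproteins, in which a UGA codon in the mRNA (TGA in the gene) is read as selenocysteine instead of stop. The coding sequence around this codon is shown because it marks the enzymes that depend on selenium, among them the member with the largest difference and the member with the most negative one. Capitals mark the selenocysteine codon, and sequences are from GENCODE M21 for GRCm38, on the strand of the gene. The codon lies early in the coding sequence of the glutathione peroxidases, at codon 73 of 197 in Gpx4 and codon 47 of 201 in Gpx1, and at the next to last codon, 526 of 527, in Txnrd2.
Gpx4: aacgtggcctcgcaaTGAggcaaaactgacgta
Gpx1: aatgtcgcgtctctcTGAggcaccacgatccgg
Txnrd2: actgtgactggttgcTGAggctaa

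The first 60 bases of the coding sequence are shown for a mitochondrial peroxiredoxin and its cytosolic counterpart, with the start codon in capitals. In Prdx3 this stretch belongs to the mitochondrial import signal, which Prdx2 lacks.
Prdx3: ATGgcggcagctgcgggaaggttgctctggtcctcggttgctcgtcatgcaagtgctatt
Prdx2: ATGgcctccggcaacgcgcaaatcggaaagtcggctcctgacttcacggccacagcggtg

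The libraries differed in depth and composition. About 47300000 and 32100000 reads lay on genes in mitochondrial replicates 1 and 2, and 26300000 and 23500000 in rest replicates 1 and 2, and the mitochondrial chromosome took 97.6% and 93.5% of the total signal in the mitochondrial libraries against 63.2% and 67.5% in the rest libraries. A nuclear gene was therefore read less deeply in the mitochondrial fraction, where 1 read was worth 3.87 and 2.55 normalized counts, against 0.264 and 0.365 in the rest fraction. A level of 3 reads corresponded to 11.6, 7.65, 0.793 and 1.10 normalized counts in the 4 libraries. The deposited scaling sets the libraries equal over genes, so that a fold change is relative to the other genes of the table, whose median log2 fold change was -0.14. It is given on the scale of log2(normalized count + 1), mitochondrial against rest.

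Of the 10 members, Gpx4 and Prdx5 rose in the mitochondrial fraction at an adjusted p-value under 0.05, none fell, and 8 did not pass the test. Over all tested genes, 2.16% were higher and 1.39% were lower by the same rule. At an unadjusted p-value under 0.05, 6 members were higher and 0 were lower, while 14.1% of all genes were higher and 16.2% were lower. In 8 members both mitochondrial values lay above both rest values, in none below, and in Cat and Txnrd2 the fractions overlapped. Over all genes 27.7% lay above and 33.4% below in this sense. Among the 8 members, Gpx1 separated by less than the worth of 1 read in mitochondrial replicate 1. The log2 fold change was positive in 9 of the 10 members, with a median of 0.81, and in 43.8% of all tested genes. With any 1 of the 4 libraries left out, neither Gpx4 nor Prdx5 passed the test, with adjusted p-values from 0.0523 to 0.526 for Gpx4 and from 0.0575 to 0.526 for Prdx5, and their log2 fold changes ran from 1.32 to 1.53 and from 1.26 to 1.46.

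**Figure D1:**
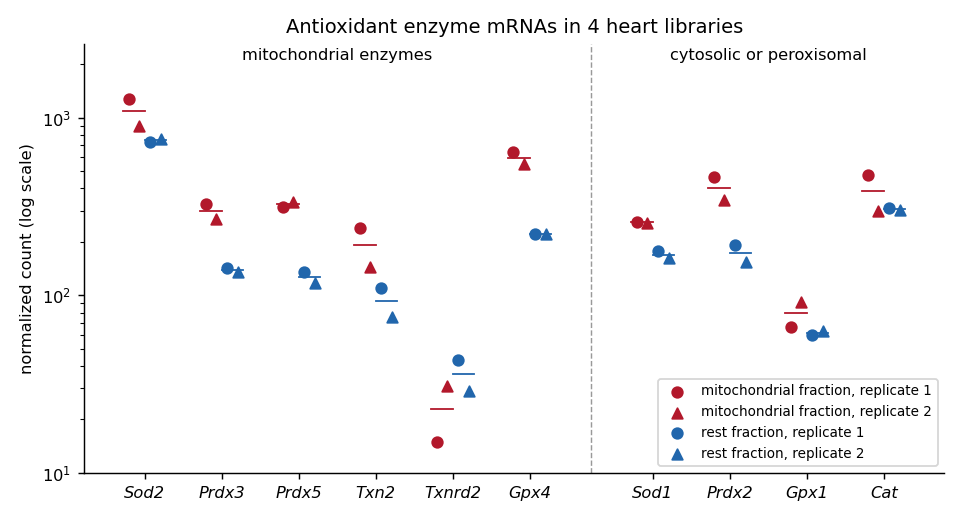
Normalized counts (log scale) of the 10 members in each of the 4 libraries, with the mitochondrial enzymes listed apart from the cytosolic or peroxisomal ones. Points are single libraries, short lines are the means of a fraction, and in 8 members both mitochondrial points lie above both rest points, while Cat and Txnrd2 overlap. In Gpx1 the gap is smaller than the worth of 1 read in mitochondrial replicate 1.

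The direction of these differences depends on the scaling. After scaling to the library totals, which the mitochondrial chromosome dominates, all 10 members were negative, as the median of all genes fell to -3.93. When the mitochondrial chromosome was left out of the total, the median was -0.98, 5 of the 10 members were positive, and Gpx4 at 0.57 and Prdx5 at 0.50 no longer passed the test. Under each of these scalings and under the deposited one, 9 of the 10 members lay above the median gene and Txnrd2 below it. Relative to that median, the members ran from -0.54 to 1.57 with the deposited scaling and from -0.54 to 1.54 with the total without the mitochondrial chromosome.

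The superoxide dismutases were nearly equal in the shift between fractions, and neither passed the test. Sod2 encodes the manganese enzyme of the mitochondrial matrix and lies at chr17:13006846-13040063 on the plus strand (GRCm38, as all positions). Its normalized counts were 1282 and 898 in the mitochondrial against 727 and 761 in the rest libraries. Both mitochondrial values were higher than both rest values, and mitochondrial replicate 1 stood well above the others. The log2 fold change was 0.53 ± 0.227 (SE, n = 2 libraries for each fraction), with an adjusted p-value of 0.197 in limma. Sod1, at chr16:90220754-90226329 on the plus strand, encodes the copper-zinc enzyme of the cytosol, of which a part lies between the mitochondrial membranes. Its normalized counts were 259 and 255 in the mitochondrial against 177 and 162 in the rest libraries, without overlap and with close replicates. Its log2 fold change was 0.60 ± 0.172 (SE), with an adjusted p-value of 0.106 in limma.

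In the peroxiredoxins the mitochondrial libraries were higher without overlap in all 3 members, and Prdx5 rose. Prdx5, at chr19:6906697-6910106 on the minus strand, encodes a peroxiredoxin found in mitochondria, peroxisomes and the cytosol. It had 314 and 337 normalized counts in the mitochondrial and 135 and 118 in the rest libraries. The mitochondrial values were close to each other and stood far above the rest values. Its log2 fold change was 1.36 ± 0.182 (SE), with an adjusted p-value of 0.0440 in limma. An exon of Trmt112 overlaps Prdx5 on the opposite strand. The kit was stranded and reads falling on several genes were left out, but the use of strand in counting is not given. Reads in the overlap were thus either told apart by strand or dropped.

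Prdx3, at chr19:60864051-60874556 on the minus strand, encodes the peroxiredoxin of the mitochondrial matrix. It had 325 and 270 normalized counts in the mitochondrial and 143 and 135 in the rest libraries. Replicates lay closer together than the fractions did. Prdx3 had a log2 fold change of 1.09 ± 0.191 (SE), with an adjusted p-value of 0.0549 in limma, just outside the threshold. Prdx2, at chr8:84969587-84974834 on the plus strand, encodes a cytosolic peroxiredoxin that is abundant in red blood cells. It had 461 and 342 normalized counts in the mitochondrial and 191 and 153 in the rest libraries, a separation like that of its mitochondrial relatives. Between the fractions Prdx2 had a log2 fold change of 1.21 ± 0.238 (SE), with an adjusted p-value of 0.0605 in limma. Exons of Junb and Rnaseh2a overlap it on the opposite strand. The hemoglobin genes and Alas2 summed, in the mitochondrial against the rest libraries, to 50 and 341 against 824 and 440 normalized counts, without a gene past the test, and the part of red blood cells in the values of Prdx2 was not tested.

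Neither gene of the thioredoxin pair that reduces the mitochondrial peroxiredoxins passed the test. Txn2, at chr15:77915047-77929006 on the minus strand, encodes mitochondrial thioredoxin. It had 240 and 145 normalized counts in the mitochondrial and 110 and 75 in the rest libraries. Values did not overlap, but replicates of both fractions were far apart. For Txn2 the log2 fold change was 1.03 ± 0.347 (SE), with an adjusted p-value of 0.137 in limma. Txnrd2, at chr16:18426384-18479073 on the plus strand, encodes the reductase of Txn2. It had 15 and 31 normalized counts in the mitochondrial and 43 and 29 in the rest libraries, and the fractions overlapped. For Txnrd2 the log2 fold change was -0.68 ± 0.469 (SE), with a 95% interval from -1.91 to 0.55 and an adjusted p-value of 0.375 in limma. The reads behind these values numbered about 4 and 12 in the mitochondrial against 163 and 79 in the rest fraction. Scaled to the total of all other chromosomes, Txnrd2 fell (log2 fold change -1.52, adjusted p = 0.0479 in limma).

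Of the glutathione peroxidases, Gpx4 rose and Gpx1 did not pass the test. Gpx4, at chr10:80047166-80056439 on the plus strand, encodes the enzyme that reduces lipid peroxides in membranes, with a mitochondrial and a shorter form made from the same gene. It had 639 and 551 normalized counts in the mitochondrial and 220 and 220 in the rest libraries. The gap between the fractions was larger than that between replicates. Gpx4 had a log2 fold change of 1.43 ± 0.172 (SE), with an adjusted p-value of 0.0427 in limma, and 94.6% of tested genes had a smaller one. The pseudogene Gpx4-ps2, named for its similarity and not for its values, had values of 143 and 84 normalized counts in the mitochondrial and 46 and 42 in the rest libraries. Reads aligning to several places were left out of the counts, so that reads shared by the gene and its copy are missing from both. Gpx1, at chr9:108338903-108340343 on the plus strand, encodes the main cytosolic glutathione peroxidase. It had 66 and 92 normalized counts in the mitochondrial and 60 and 63 in the rest libraries, where the lowest mitochondrial value lay just above the highest rest value. This gap was smaller than the 3.87 normalized counts of 1 read in mitochondrial replicate 1, where Gpx1 had about 17 reads. Gpx1 had a log2 fold change of 0.34 ± 0.262 (SE), with a 95% interval from -0.35 to 1.02 and an adjusted p-value of 0.428 in limma.

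Cat, at chr2:103453849-103485160 on the minus strand, encodes catalase, which breaks down hydrogen peroxide in peroxisomes. It had 476 and 298 normalized counts in the mitochondrial and 312 and 304 in the rest libraries. The fractions overlapped, and mitochondrial replicate 1 alone stood above the rest values. The log2 fold change was 0.29 ± 0.271 (SE), with an adjusted p-value of 0.503 in limma, and it was -0.047 without mitochondrial replicate 1.

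**Figure D2:**
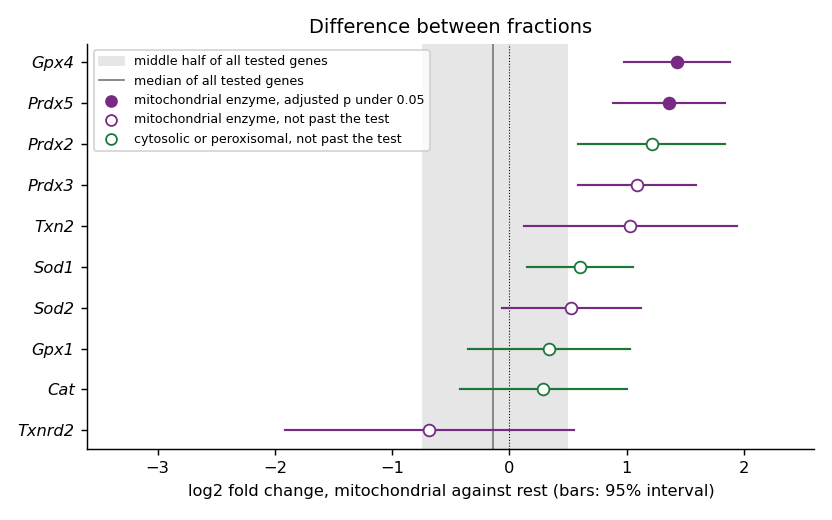
Log2 fold change of each member, mitochondrial against rest, with its 95% interval from limma. Points are coloured by compartment, the grey band holds the middle 50% of all tested genes around their median, and Gpx4 at 1.43 and Prdx5 at 1.36 are the members past the adjusted threshold, while the intervals of Sod2, Txnrd2, Gpx1 and Cat include 0.

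By compartment, 2 of the 6 mitochondrial members rose, Gpx4 and Prdx5, whose proteins are not confined to mitochondria. The other 4 did not pass the test, and the median log2 fold change of the 6 was 1.06. None of the 4 cytosolic or peroxisomal members passed it, and their median was 0.47. Among these Prdx2 passed when the test was limited to genes with a mean above 50 normalized counts (adjusted p = 0.0202 in limma) or when the pseudocount was 10 (adjusted p = 0.0445), as did Prdx3 among the mitochondrial members (adjusted p = 0.0180 and 0.0403). Whether a mitochondrial enzyme shifted more than its counterpart was asked with the ratio of the genes inside each library. The ratio itself does not depend on scaling, while the log2 ratios carry the pseudocount of 1 on each value. With 2 libraries against 2, the exact permutation test cannot go below 0.333, so that none of the 7 ratios could pass a threshold of 0.05, before or after adjustment.

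Sod2 was 4.95 and 3.52 times Sod1 in the mitochondrial and 4.11 and 4.70 times in the rest libraries, in normalized counts per gene. The fractions overlapped, and the difference in log2 ratio was -0.07 (two-sided exact permutation p = 1.00). Gpx4 was 9.68 and 5.99 times Gpx1 in the mitochondrial and 3.67 and 3.49 times in the rest libraries. Here the fractions separated, with a difference in log2 ratio of 1.09 (exact permutation p = 0.333, the smallest possible). Counts of the gene Gpx4 do not tell its mitochondrial and shorter forms apart. Prdx3 to Prdx2 overlapped, with a difference in log2 ratio of -0.12 (exact permutation p = 0.667), and so did Prdx5 to Prdx2, with 0.15 (exact permutation p = 1.00).

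The ratio of Txn2 to its cytosolic counterpart Txn1 was 6.15 and 3.82 in the mitochondrial and 5.24 and 4.69 in the rest libraries, and the rest values lay between the mitochondrial ones. The ratio of Txnrd2 to Txnrd1, the cytosolic reductase, was 0.0943 and 0.282 in the mitochondrial and 0.434 and 0.271 in the rest libraries, again with overlap (difference in log2 ratio -1.04, exact permutation p = 0.667). The 6 mitochondrial members summed were 2.23 and 2.26 times the 4 others summed in the mitochondrial fraction and 1.86 and 1.96 times in the rest fraction. This ratio, whose numerator is mostly Sod2 and Gpx4, separated with a difference in log2 ratio of 0.23 (exact permutation p = 0.333).

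**Figure D3:**
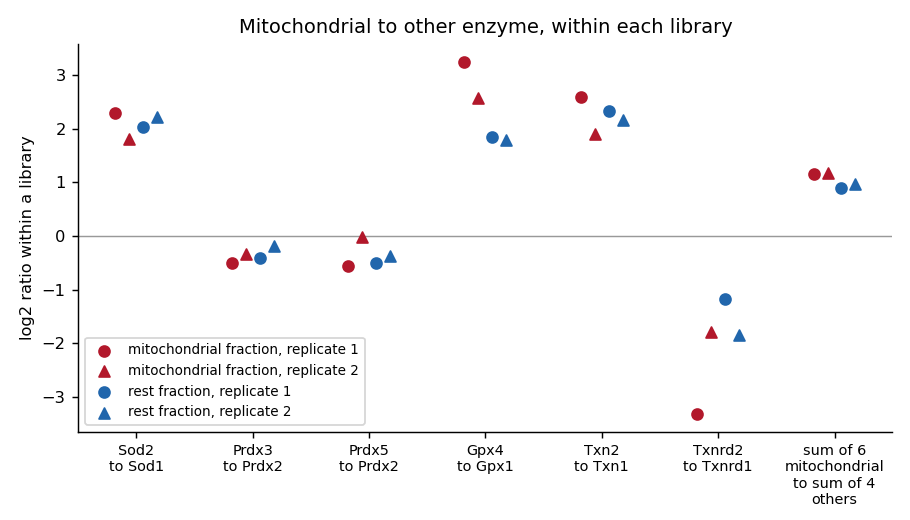
Ratio of a mitochondrial enzyme to its counterpart inside each library, on a log2 axis, for 6 gene pairs and for the sums of the 6 mitochondrial and the 4 other members. Points are single libraries. The fractions separate for Gpx4 to Gpx1 and for the sums, and overlap for the 5 other pairs.

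Levels of different genes were compared as normalized counts per kb of the principal transcript. In the rest fraction the order of the mean levels per kb was Sod1 (264), Gpx4 (229), Sod2 (127), Cat (118), Prdx2 (107), Prdx5 (100.2), Prdx3 (94.0), Gpx1 (57.4), Txn2 (45.1) and Txnrd2 (12.5). Neighbours from Cat to Prdx3 in this order overlapped between libraries, and the other neighbours did not. In the mitochondrial fraction the order of the levels per kb was Gpx4 (620), Sod1 (401), Prdx5 (258), Prdx2 (249), Prdx3 (201), Sod2 (186), Cat (148), Txn2 (93.9), Gpx1 (73.7) and Txnrd2 (8.0). Only Gpx4 from Sod1, Sod1 from Prdx5 and Gpx1 from Txnrd2 were separate among these neighbours. Places in this order depend on the length used, that of Sod1 most of all, because the union of its annotated exons is 3970 bases and its principal transcript 641 bases. Per kb of union length, Gpx4 was above Sod1 in both fractions, at 345 against 64.7 in the mitochondrial and 128 against 42.7 in the rest fraction.

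Over the protein-coding genes tested, classes of shorter transcripts had higher log2 fold changes, and 9 of the 10 members have a transcript shorter than the median of these genes, Sod2 being the exception. The principal transcript had a median length of 1545 bases in the members and 3290 bases in the 10624 protein-coding genes tested. The Spearman correlation between length and log2 fold change was -0.43 over these genes and -0.52 over the 10 members, each given as a description across genes of the same 4 libraries. In the class up to 1000 bases, 519 genes had a median log2 fold change of 1.19, against which Gpx4 (959 bases) had 1.43 and Sod1 (641 bases) 0.60. From 1000 to 1500 bases the median of 807 genes was 0.66, and Prdx5 (1262 bases) and Prdx3 (1478 bases) had 1.36 and 1.09, while Gpx1 (1072 bases) had 0.34. Prdx2 (1612 bases) had 1.21 in a class of 1060 genes with a median of 0.24. Txn2 (2049 bases) had 1.03, Cat (2613 bases) 0.29 and Txnrd2 (2874 bases) -0.68 in a class of 2292 genes with a median of 0.00. Sod2 has the longest transcript of the members (5861 bases), and its 0.53 stood in a class of 2452 genes with a median of -0.54. Thus 7 of the 10 members lay above the median of their length class, and Sod1, Gpx1 and Txnrd2 below it. The part of transcript length in the differences was not tested.

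**Figure D4:**
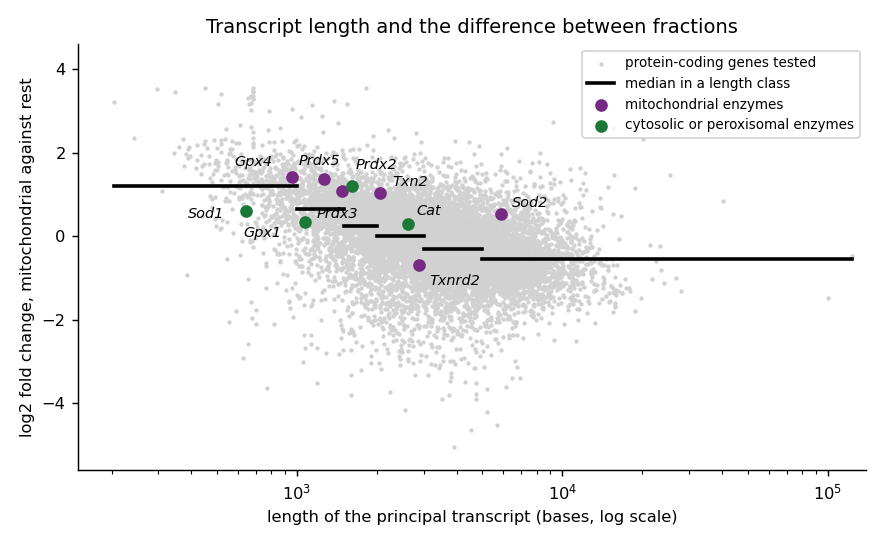
Log2 fold change, mitochondrial against rest, by length of the principal transcript (bases, log scale). Grey points are the protein-coding genes tested, black lines the median in each length class, and coloured points the 10 members, of which Sod1, Gpx1 and Txnrd2 lie below the line of their class.

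Markers of heart cell types were looked up for the same libraries. Over all genes, 27.7% lay above and 33.4% below without overlap, against which the counts of marker genes are to be read. All 7 cardiomyocyte markers were detected, as the label heart implies. Of these 4 were higher and 2 lower without overlap, with a median log2 fold change of 0.59, while their sum, in which Ttn and Myh6 weigh most, was 389928 and 296612 normalized counts in the mitochondrial and 562147 and 499542 in the rest libraries. The summed fibroblast markers were 8188 and 3440 against 2175 and 3063 normalized counts, with 5 of 5 genes higher without overlap. The summed macrophage markers were 464 and 286 against 169 and 253, with 3 of 5 genes higher without overlap. Endothelial markers summed to 1402 and 1214 against 2395 and 2173, with 4 of 4 genes lower without overlap. All 5 erythroid markers were lower without overlap, and Alas2 was at 0 in mitochondrial replicate 1. Of the smooth muscle markers Myh11 fell (log2 fold change -3.40, adjusted p = 0.0427 in limma) and was lower without overlap. Acta2 overlapped, at 93 and 362 against 208 and 574 normalized counts, and Tagln was not listed. Myh11 and Acta2 summed to 136 and 423 against 588 and 1374. The nuclear RNAs Malat1, Neat1 and Kcnq1ot1 summed to 13648 and 8699 against 42937 and 45482 normalized counts, all 3 lower without overlap. Of the 31 markers tested, Myh11 alone passed the test. The part of these cells and of nuclear RNA in the members' values was not tested, and in such bulk samples fewer cells of a type and less RNA per cell cannot be told apart.

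A wider set of 75 antioxidant genes outside the 10 members gave the surroundings. Of the 71 that passed the filter, 3 rose, none fell and 68 did not pass the test, at background shares of 2.16% and 1.39%. At an unadjusted p-value under 0.05, 20 were higher and 3 lower, where 14.1% and 16.2% of all genes were. The median log2 fold change was 0.32, between the median of all genes and that of the members. In 35 genes the mitochondrial values lay above and in 7 below the rest values without overlap, and 29 overlapped, at shares of 27.7% above and 33.4% below over all genes.

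The 3 that rose were all selenoproteins, out of 11 tested in their list, which does not hold every selenoprotein of the wider set. Gpx3, Txnrd1, Txnrd3 and Sephs2, selenoproteins in other lists, did not pass (adjusted p = 0.642, 0.390, 0.900 and 0.626 in limma). Msrb1, which repairs oxidized methionine, had 97 and 89 normalized counts in the mitochondrial and 29 and 24 in the rest libraries (log2 fold change 1.78, adjusted p = 0.0469 in limma). Selenow, a small protein of muscle and other tissues, had 232 and 217 against 75 and 76 (1.56, adjusted p = 0.0427 in limma). Selenok, a protein of the endoplasmic reticulum membrane, had 248 and 232 against 65 and 79 (1.73, adjusted p = 0.0427 in limma). Selenow and Selenok were named after their values were seen. Their selenocysteine codons are shown beside those of the members because these are the genes of the wider set that passed the test. The codon is number 13 of 88 in Selenow, 92 of 94 in Selenok and 95 of 116 in Msrb1.
Selenow (chr7:15917208-15922402, minus strand): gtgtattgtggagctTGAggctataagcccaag
Selenok (chr14:29968308-29975662, plus strand): ccaatggctggtggaTGAggaaggtaa
Msrb1 (chr17:24736642-24742778, plus strand): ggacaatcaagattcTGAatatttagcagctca

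The principal transcripts of these genes are also short, at 736 bases in Selenow, 1211 in Msrb1 and 1678 in Selenok. The median log2 fold change of the 11 genes was 0.21, and Selenoo, at 8 and 15 against 28 and 22 normalized counts, had the most negative value of the list (-1.11, adjusted p = 0.186 in limma). Under the scaling to library totals Msrb1, Selenow and Selenok were negative, and without the mitochondrial chromosome in the total they were at 0.93, 0.70 and 0.87 and missed the threshold (adjusted p = 0.0737, 0.0966 and 0.0595 in limma). None of the 6 genes for selenoprotein synthesis passed the test (median -0.07). Secisbp2, which binds the selenoprotein mRNAs, had 39 and 20 against 77 and 64 normalized counts (-1.30, adjusted p = 0.117 in limma). Eefsec, the elongation factor for selenocysteine, had 15 and 13 against 13 and 8 (0.42, adjusted p = 0.571 in limma). About 10 and 8 reads of Secisbp2 and 4 and 5 of Eefsec lay in the mitochondrial libraries.

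The remaining lists held no gene past the test. For superoxide, 2 genes were tested, with a median log2 fold change of 0.48. The extracellular dismutase Sod3 had 97 and 43 against 41 and 65 normalized counts, with overlap. The copper chaperone of Sod1, Ccs, had 19 and 15 against 11 and 10, without overlap (0.64, adjusted p = 0.341 in limma). Among 12 peroxiredoxin and thioredoxin genes the median was 0.11. The cytosolic Prdx1 had 310 and 296 against 134 and 171 normalized counts (1.00, adjusted p = 0.0631 in limma), and Prdx6, which also acts on lipid peroxides, had 267 and 232 against 130 and 114 (1.03, adjusted p = 0.0589). Both separated by fraction like Prdx2 and Prdx3. The peroxiredoxin of the endoplasmic reticulum, Prdx4, overlapped at 15 and 10 against 14 and 20. Txn1 had 39 and 38 against 21 and 16 (1.03, adjusted p = 0.117), the same log2 fold change as Txn2 to 2 decimals. Txnrd1 had 159 and 110 against 99 and 107 (0.36, adjusted p = 0.390), and Txnip, which binds and inhibits thioredoxin, had 554 and 602 against 721 and 878 (-0.46, adjusted p = 0.173).

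Among 18 genes of glutathione use and synthesis the median log2 fold change was 0.54. Mgst3, a membrane-bound glutathione transferase, had 229 and 140 against 76 and 57 normalized counts (1.43, adjusted p = 0.0711 in limma). Gsr, which regenerates glutathione, had 50 and 54 against 43 and 36 (0.39, adjusted p = 0.354), and Gclc, the catalytic subunit of the first step of glutathione synthesis, overlapped at 12 and 36 against 25 and 37. In 10 genes of NADPH supply the median was 0.12. Mitochondrial Idh2 was the most abundant of them, with 4675 and 2650 against 2541 and 1845 normalized counts (0.70, adjusted p = 0.246). The cytosolic Me1 had 294 and 301 against 148 and 205 (0.77, adjusted p = 0.109), and G6pdx, the entry enzyme of the pentose phosphate pathway, overlapped at 19 and 13 against 14 and 16. The mitochondrial transhydrogenase Nnt was listed at 0 and 15 in the mitochondrial against 35 and 31 in the rest libraries (adjusted p = 0.209). Its 0 allows up to the 11.6 normalized counts that 3 reads reach in that library, so that no fold is given.

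Among 9 genes of the response to the transcription factor Nrf2 the median log2 fold change was 0.62. The ferritin heavy chain Fth1, which stores iron, had 2943 and 2000 against 851 and 852 normalized counts (1.51, adjusted p = 0.0502 in limma), and its fractions were far apart. Mafg, a partner of Nrf2 on DNA, had 43 and 51 against 100 and 75 (-0.87, adjusted p = 0.116). In 3 genes of methionine repair the median was 0.75, and all 3 were higher without overlap. The mitochondrial Msrb2 had 97 and 66 against 37 and 39 normalized counts (1.06, adjusted p = 0.0967), and Msrb3 had 546 and 474 against 312 and 338 (0.65, adjusted p = 0.0931). Sesn2, Gpx7, Hmox1 and Selenoh did not pass the filter on low values and were not tested.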

How the data were processed

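RNA of the mitochondrial and rest fractions of mouse heart was prepared by the authors with a kit for small inputs of total RNA and sequenced. The submitters' processing notes list Trimmomatic 0.39, STAR 2.7.10a, featureCounts 2.0.2 and DESeq2 1.30.1 with genome build mm10 (GRCm38). Reads aligning to several places or falling on several genes were left out by the authors. The deposited signal is a normalized count, the count of a gene divided by a size factor of the library and rounded.

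The reads behind a value were estimated from the spacing of the values. A read in the rest libraries moves a value by under 1 normalized count, whole reads could therefore not be recovered, and a test of counts was replaced by limma 3.58.1 (R 4.3.3) on log2(normalized count + 1), with moderation and a mean-variance trend. Tested were genes that reached 10 normalized counts in 2 or more libraries, all 4 libraries entered the fit, and p-values are two-sided and adjusted by Benjamini-Hochberg over 12150 genes at a threshold of 0.05. Both the spacing and the fit were tested on simulated data. There the fit called 45% of 200 genes changed 4-fold, with 0 false calls, so that not passing the test does not show equal levels. Intervals are 95% intervals of the fit, and the levels of 3 reads cover counting error only. Within-library ratios were compared by exact permutation.

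Positions, principal transcripts and coding sequences came from GENCODE M21 (GRCm38), in which 15736 of the 15746 genes had a length. Per-kb levels use the principal transcript.

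All members are named. Beside them the counterparts Txn1, Txnrd1, Prdx1, Prdx4, Prdx6, Sod3, Ccs, Gsr, Nnt, Idh2 and G6pdx are named, and from each wider list the tested genes with the highest and the lowest log2 fold change. Gpx3, Txnrd3 and Sephs2 are named as selenoproteins of other lists. Members and lists were chosen with earlier results of these data known. The alternatives were recomputed size factors, TMM, library totals with and without the mitochondrial chromosome, no filter, a mean above 50, pseudocounts of 0.1 and 10, the replicate block and each library left out. Python 3.11.15 with pandas 2.3.3, scipy 1.17.1 and matplotlib 3.10.9 was used.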

Additional observations from a re-analysis of the deposited data

How the results depend on the processing

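Nuclear genes rest on few reads in the mitochondrial libraries, with 2 libraries a fraction. Of all genes, 262 were higher and 169 lower. These counts were 436 and 309 with TMM, 279 and 630 of 15746 without the filter, 790 and 670 of 5556 with a mean above 50, 0 and 0 with a pseudocount of 0.1 (1694 and 1754 at unadjusted p under 0.05), 536 and 580 with a pseudocount of 10, 2 and 12022 by library total and 129 and 3819 by the total without the mitochondrial chromosome. The cause of each change was not tested.

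Of the members, 2 were higher, and of the wider set 3. With TMM, 3 members (Prdx3 added, 1.10) and 7 of the wider set were higher. With a mean above 50 it was 4 members (Prdx3 1.09 and Prdx2 1.21 added) and 10, and with a pseudocount of 10 it was 4 (Prdx3 1.04, Prdx2 1.17) and 8. With a pseudocount of 0.1 it was 0 and 0, and Prdx5 at 1.37 and Gpx4 at 1.43 missed the threshold (adjusted p = 0.0543). With recomputed size factors and without the filter no member changed its call. With the replicate block 4 members (Prdx3 1.09 with adjusted p = 0.0467, Prdx2 1.21 with 0.0374) and 6 of the wider set were higher, which makes 3 of the 6 mitochondrial and 1 of the 4 other members, beside 470 higher and 309 lower genes in all. The numbers are shared by 2 pairs only, whose deviations correlated with r = 0.13 over 12150 genes, and the labels do not say that they pair libraries. The block changed no other member's call.

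With any library left out, which leaves a fraction with 1 library assumed to vary like the others, no gene passed (higher members 0 to 0, wider set 0 to 0), while 3 to 7 members were higher at unadjusted p under 0.05. Over all genes 590 to 2333 were higher and 468 to 3324 lower at that unadjusted limit. The log2 fold change was 1.26 to 1.46 for Prdx5 and 1.32 to 1.53 for Gpx4. For Gpx4 the adjusted p in limma was 0.0960 and 0.0523 without mitochondrial replicates 1 and 2 and 0.526 and 0.485 without rest replicates 1 and 2, and for Prdx5 it was 0.0960, 0.0575, 0.526 and 0.485. The sign changed for Cat (-0.047 to 0.63, negative without mitochondrial replicate 1), Sod3 (-0.26 to 0.90), G6pdx (-0.19 to 0.32) and Gclc (-1.27 to 0.24). The difference in log2 ratio of Gpx4 to Gpx1 ran from 0.75 to 1.43, and that of the summed members from 0.20 to 0.27.

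By library total 0 members and 0 of the wider set were higher and 10 and 71 lower, with log2 fold changes of -3.45 for Sod2, -2.88 for Prdx3, -2.61 for Prdx5, -2.92 for Txn2, -4.41 for Txnrd2, -2.55 for Gpx4, -3.36 for Sod1, -2.76 for Prdx2, -3.57 for Gpx1, -3.68 for Cat, -2.79 for Txn1, -3.59 for Txnrd1, -2.97 for Prdx1, -2.93 for Prdx6, -3.59 for Sod3, -3.02 for Ccs, -3.48 for Gsr, -3.29 for Idh2, -3.61 for G6pdx, -2.52 for Mgst3, -3.20 for Me1, -2.47 for Fth1, -3.20 for Eefsec, -2.12 for Msrb1, -2.85 for Msrb2, -3.33 for Msrb3, -2.39 for Selenow and -2.22 for Selenok. Without the mitochondrial chromosome in the total 0 members and 0 of the wider set were higher and 1 (Txnrd2, -1.52, adjusted p = 0.0479) and 7 lower, with 0.50 for Prdx5, 0.57 for Gpx4, -0.34 for Sod2, -0.26 for Sod1, -0.52 for Gpx1, -0.57 for Cat, -0.50 for Txnrd1, -0.53 for Sod3, -0.16 for Ccs, -0.45 for Gsr, -0.16 for Idh2, -0.74 for G6pdx, -0.092 for Me1, -0.38 for Eefsec and -0.22 for Msrb3.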
